A study of Mus musculus with 12 samples.

Results

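The triad calcium release complex is the set of proteins that turns a muscle action potential into calcium release. Its genes were followed here as 10 fixed members, Ryr1, Ryr3, Cacna1s, Cacnb1, Cacng1, Cacng6, Stac3, Jph1, Jph2 and Jsrp1, each found by gene symbol among the 55385 genes of the deposited C2C12 count table. C2C12 is an immortalised mouse myoblast line that stops dividing and fuses into multinucleate myotubes when differentiated. Total RNA was sequenced from 3 samples labelled undifferentiated control (myoblasts) and 3 samples differentiated into myotubes for 7 days, all of the same line, with no other treatment or allele in the labels. A further 6 small RNA samples of mouse embryonic stem cells in the series were not used. Separate cultures are not named in the labels, and the p-values therefore cover only the sample-to-sample spread seen here, which may be technical.

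In skeletal muscle the surface membrane dips inwards as transverse tubules (T-tubules), and each tubule meets the sarcoplasmic reticulum, the calcium store, at the triad. The voltage sensor in the tubule is an L-type calcium channel built from the pore subunit Cacna1s with beta, gamma and alpha2-delta subunits, and it opens the ryanodine receptor of the store by mechanical coupling. Junctophilins hold the membranes together, and the adaptors Stac3 and Jsrp1 link the channel to the release machinery. Heart, brain and other tissues build their channels from paralogs of the same families, such as Ryr2, Cacna1c and Cacnb2.

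All 10 members passed the filter on low counts, and 9 of them rose in myotubes (edgeR quasi-likelihood test, adjusted p under 0.05). Over all 15932 tested genes 20.5% were called higher and 19.6% lower, 40.1% in either direction. The myotube samples lay wholly above the myoblast samples for 8 members, against 28.7% of all tested genes (27.2% lay wholly below and 55.9% lay apart in either direction), with Cacng1 and Jph2 overlapping. No member was called lower by edgeR, DESeq2 or limma-voom, and 0 were lower at an unadjusted p under 0.05 in edgeR. The median log2 fold change of the 10 members was 3.24, and that of all tested genes was 0.06. Cacng6 and the pore subunit Cacna1s, at 0 or near 0 in myoblasts, had the largest rises, Ryr1 followed, and Jph2 was the member that was not called. Cacng6 (0 counts in each myoblast library) and Cacna1s (4, 24 and 22) passed the filter only through the myotube group. A call of lower was thus not open to these genes, which are among the 9 called and the 8 apart. The members were chosen with earlier results of these data known, so their count describes this set and is not independent evidence of a direction.

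The labelled stages were checked against marker genes. Of 8 myotube markers, among them Myog, Myh3 and Ckm, 8 were called higher, and their summed level was 112 to 242 CPM (read counts scaled to library size with TMM factors) in myoblasts and 8336 to 20139 CPM in myotubes. Of 5 markers of dividing cells 5 were called lower, with summed levels of 2521 to 2731 CPM and 248 to 890 CPM. Of 5 markers of the myoblast line, Myf5 and Msc were called lower, Des was called higher (1.83 ± 0.40), and Myod1 and Cdh15 were not called, and the list summed to 590 to 978 CPM in myoblasts and 985 to 3000 CPM in myotubes. The defining neuronal genes Rbfox3 and Snap25 had 0 counts in all libraries, while Tubb3 took nearly all of that list's 139 to 180 CPM in myoblasts and 10.5 to 37.3 CPM in myotubes, and the summed adipocyte, osteoblast and stem cell markers stayed at or under 1.14 CPM in each library. Among cardiac markers Myl7 had 0 counts and Nppa 1 count in all, Myh6 was called higher (7.03 ± 0.81 on the log2 scale, SE), Gata4 (-1.11 ± 0.20) and Nppb (-2.74 ± 0.66) were called lower, and the list summed to 14.7 to 20.7 CPM over the 6 libraries. The 4 smooth muscle markers summed to 66.1 to 141 CPM. Smtn was the most abundant of them and was not called (0.56 ± 0.27, adjusted p = 0.136), and Cnn1, at up to 23.6 CPM in myoblasts, was called lower (-4.73 ± 0.93, adjusted p = 0.0056). Of the markers, Ckm, Mybpc1 and Myh6 passed the filter only through the myotube group and could only be called higher. Msc, Nppb and Cnn1 passed it only through the myoblast group and could only be called lower. The shares over all tested genes were 20.5% called higher and 19.6% lower. In bulk RNA, fewer cells of a type and less RNA per cell cannot be told apart. Total counts ranged from 18335785 to 54083215 per library.

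The 10 genes lie in pairs on chromosomes 1, 2, 7, 10 and 11 (RefSeq annotation of GRCm38.p6). Cacna1s spans chr1:136052806-136119822 and Jph1 chr1:16942104-17097922. Ryr3 spans chr2:112631354-113217405 and Jph2 chr2:163336242-163398049. Of the chromosome 7 pair, Ryr1 spans chr7:29003340-29125179 and Cacng6 chr7:3423588-3435667, the latter 7322 bases from its paralog Cacng8. Jsrp1 spans chr10:80808494-80813741 and Stac3 chr10:127501617-127508823. Cacnb1 spans chr11:98001508-98023034, and Stac2, the paralog of Stac3, is annotated 13589 bases from it. Cacng1 spans chr11:107703218-107716476, 15881 bases from its paralog Cacng4. Cacnb1 shares the 1032 bases at its high-coordinate side with Rpl19, a ribosomal protein gene, whose level was 621 CPM in myoblasts and 386 CPM in myotubes on average (log2 fold change -0.69, adjusted p = 0.0294). Whether the counting used strand is not stated by the labels or headers, and reads in that stretch are uncertain. The 3 non-coding genes annotated within Ryr1 had 3 counts together over all libraries. Gm46085 and Gm35750, which overlap Jph1 and Jph2 in the annotation, were not analysed here.

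RefSeq promoter windows (GRCm38.p6) were matched for 5 of the 10 members, and 3 of these windows held a stretch outside the annotated gene, from 250 to 57 bases before the listed start. The 194 bases of that stretch are shown for the most strongly induced channel gene with a count in myoblasts (Cacna1s, chr1:136052561-136052754, plus strand), for the release channel (Ryr1, chr7:29125208-29125401, minus strand) and for the member that was not called (Jph2, chr2:163398050-163398243, minus strand). Capitals mark matches on either strand to the E-box CANNTG (the form CAGCTG was also counted by itself and overlaps it), the MCAT element CATTCC, the MEF2 consensus or the CArG box.
Cacna1s: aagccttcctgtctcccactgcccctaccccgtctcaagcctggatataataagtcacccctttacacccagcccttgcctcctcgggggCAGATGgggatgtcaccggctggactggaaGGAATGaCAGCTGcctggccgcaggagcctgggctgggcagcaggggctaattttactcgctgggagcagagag
Ryr1: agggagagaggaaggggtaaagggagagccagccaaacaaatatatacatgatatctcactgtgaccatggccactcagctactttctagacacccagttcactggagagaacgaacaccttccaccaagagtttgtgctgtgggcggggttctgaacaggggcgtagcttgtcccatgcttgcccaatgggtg
Jph2: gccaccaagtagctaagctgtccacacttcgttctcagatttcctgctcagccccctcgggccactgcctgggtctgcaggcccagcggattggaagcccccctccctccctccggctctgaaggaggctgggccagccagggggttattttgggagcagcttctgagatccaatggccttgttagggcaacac
Cacna1s held 2 E-boxes, CAGATG at -160 and CAGCTG at -123, and the MCAT element read as GGAATG at -130, counted from the listed start. In these letters the Ryr1 and Jph2 stretches held 0 matches to any of the motifs. Of 27025 genes with a window of this length, 58% held a CANNTG E-box, 9.77% the form CAGCTG, 10.3% the MCAT element, 2.4% the MEF2 consensus and 1.03% the CArG box. A match is a description of the sequence and does not show a binding site.

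**Figure D1:**
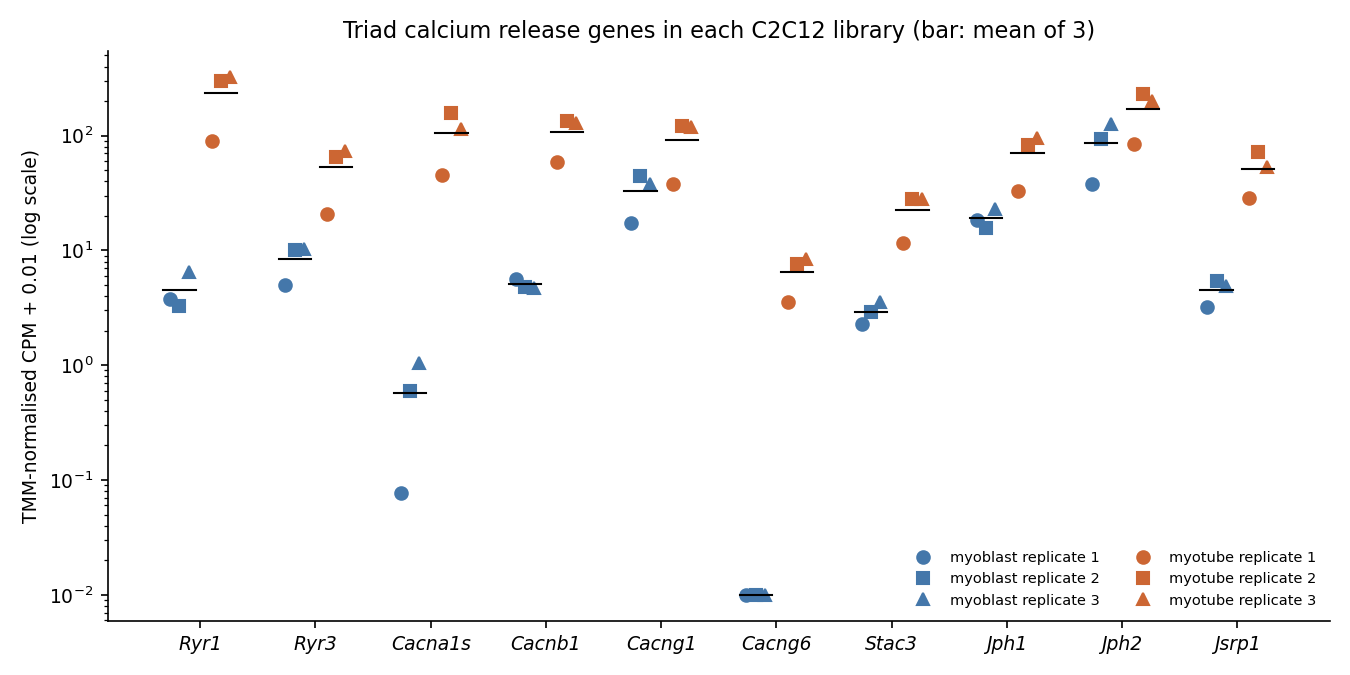
TMM-normalised CPM plus 0.01, on a log scale, of the 10 members in 3 myoblast (blue) and 3 myotube (orange) libraries, with the mean of each group as a bar. Cacng6 sits at 0 CPM in the 3 myoblast libraries, and myotube replicate 1 is the lowest myotube library for each of the 10 genes.

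The ryanodine receptors are the release channels of the store, and Ryr1 is the skeletal muscle form. Ryr1 (ENSMUSG00000030592.18) was at 3.79, 3.29 and 6.42 CPM in myoblast replicates 1 to 3 and at 89.4, 297 and 326 CPM in myotube replicates 1 to 3. The lowest myotube library was far above the highest myoblast library. The log2 fold change was 5.74 ± 0.57 (SE, adjusted p = 0.000332), a 53.3-fold rise. Ryr3, a receptor found in many tissues and in developing muscle, was at 5.03, 10.01 and 10.3 CPM in myoblasts and at 20.6, 65.6 and 73.4 CPM in myotubes, again without overlap. Its log2 fold change was 2.66 ± 0.50 (SE, adjusted p = 0.00464), a 6.33-fold rise. Ryr2, the cardiac form, had 5 counts in all myoblast libraries together and 2 in all myotube libraries, too few to be tested.

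The makeup of the ryanodine receptor transcripts therefore differed between the groups. Counts were divided by the deposited gene length, since levels of different genes compare only per length. Ryr1 made up 39.5%, 22.2% and 35.1% of the length-scaled counts of Ryr1, Ryr2 and Ryr3 in myoblasts and 79.0%, 79.7% and 79.4% in myotubes. Ryr3 was the larger part in each myoblast library (60.3%, 77.7% and 64.5%) and the smaller part in each myotube library (20.9%, 20.3% and 20.6%). The mean share of Ryr1 was 32.2 ± 8.99% and 79.4 ± 0.36% (SD, n = 3), a difference of 47.1 percentage points. In a two-sided exact permutation test p was 0.1, the smallest that 3 against 3 samples allows, and 0.175 adjusted over the 7 shares computed. The ratio of Ryr1 to Ryr3 per length was 3.77, 3.93 and 3.86 in the 3 myotube libraries, while the CPM of Ryr1 ran from 89.4 to 326 over the same libraries.

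Cacna1s encodes the pore and voltage sensor of the skeletal L-type channel. Its level (ENSMUSG00000026407.17) was 0.0668, 0.584 and 1.03 CPM in myoblasts, from 4, 24 and 22 counts, and 45.1, 158 and 115 CPM in myotubes. Each myotube library lay above each myoblast library. The log2 fold change was 7.76 ± 0.88 (SE, adjusted p = 0.000574). With myoblast levels this low the size of the fold depended on single libraries, at 7.07 without myoblast replicate 1 and 8.43 without myoblast replicate 3. The other L-type pore genes Cacna1c, Cacna1d and Cacna1f had 1 count each in myoblasts and 0, 1 and 0 in myotubes. Cacna1s accordingly held 100%, 95.4% and 98.7% of the pore family per length in myoblasts, on only 4, 26 and 23 family counts, and 99.96% or more in each myotube library.

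Cacnb1 encodes the cytoplasmic beta subunit that carries the skeletal pore to the membrane. It was at 5.66, 4.80 and 4.74 CPM in myoblasts and at 58.4, 133 and 129 CPM in myotubes, with no overlap. The log2 fold change of 4.40 ± 0.35 (SE, adjusted p = 0.000146) was a 21.0-fold rise, and the group means were 5.07 ± 0.52 and 107 ± 42.1 CPM (SD, n = 3). Of the other beta subunits, 2 were tested and not called. Cacnb3 was at 71.4 ± 11.3 CPM in myoblasts and 61.1 ± 2.09 CPM in myotubes (log2 fold change -0.22 ± 0.17, adjusted p = 0.317), and the value for Cacnb2 was 0.32 ± 0.35 (SE, adjusted p = 0.496). Cacnb4 had 1 count in myoblasts and 14 in myotubes and was not tested. Per length, Cacnb1 made up 6.83%, 4.70% and 5.95% of the beta subunit counts in myoblasts and 43.4%, 65.5% and 64.8% in myotubes, a difference of 52.1 percentage points (exact permutation p = 0.1, adjusted 0.175). Cacnb3 was thus the leading beta subunit transcript in myoblasts and, with a Cacnb1 to Cacnb3 ratio of 0.81, in myotube replicate 1, whereas the ratio was 1.97 and 1.91 in myotube replicates 2 and 3.

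The gamma subunits differed most in where they started. Cacng1 (ENSMUSG00000020722.5), the gamma subunit of the skeletal channel, was already at 17.5, 44.4 and 37.8 CPM in myoblasts and stood at 38.2, 121 and 118 CPM in myotubes. Myotube replicate 1 lay below myoblast replicate 2, so the groups overlapped. Its log2 fold change of 1.48 ± 0.49 (SE) passed the test narrowly (adjusted p = 0.0432). That call was lost without any of myoblast replicates 1, 2 and 3 (adjusted p = 0.1, 0.0649 and 0.0985) or myotube replicates 2 and 3 (0.125 and 0.109), and it was lost as well with library size scaling (0.0576), limma-voom (0.0538) or no filter (0.201). Cacng6, a related gamma subunit also found in skeletal muscle, had 0 counts in all 3 myoblast libraries and 91, 233 and 146 counts in myotubes, at 3.52, 7.59 and 8.46 CPM. Against a floor of 3 counts over the myoblast group it was at least 259-fold higher (adjusted p = 0.000467).

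Of the gamma paralogs only Cacng7 had more than 25 counts in a group. Cacng8, the neighbour of Cacng6, had 25 counts in myoblasts and 3 in myotubes, and Cacng4, the neighbour of Cacng1, had 8 and 0. Cacng2 and Cacng3 had 0 counts in all libraries, and Cacng5 had 1 in all. Cacng7 was highest in replicate 1 of each group, with 1.87, 0.17 and 0 CPM in myoblasts and 6.61, 1.43 and 1.57 CPM in myotubes. In myotube replicate 1 it exceeded Cacng6 per length, at 2.71 against 1.78 CPM per kilobase. Its value of 2.14 ± 1.20 (log2, adjusted p = 0.188) did not pass the test, except without myoblast replicate 1 (4.89, adjusted p = 0.0207) or with the replicate block (2.88, adjusted p = 0.0184). In the myotube libraries Cacng1 exceeded Cacng6 by 17.2, 25.2 and 22.0 times per length.

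Stac3 is an adaptor that the skeletal voltage sensor needs for trafficking and coupling. It was at 2.27, 2.92 and 3.56 CPM in myoblasts and at 11.6, 27.8 and 28.2 CPM in myotubes. The groups did not overlap, and the log2 fold change was 2.96 ± 0.38 (SE, adjusted p = 0.000899), a 7.77-fold rise. Its paralog Stac2 moved the other way, from 27.1, 36.5 and 44.5 CPM in myoblasts to 17.0, 17.3 and 21.4 CPM in myotubes (log2 fold change -0.95 ± 0.22, adjusted p = 0.0111), also without overlap. Stac was low throughout, at 0.141 to 0.401 CPM in myoblasts and 0.734 to 1.45 CPM in myotubes. It passed the filter only through the myotube group, so a call of lower was not open to it. It was called higher (2.12 ± 0.56, adjusted p = 0.0189), but not once myoblast replicate 2 or 3 or myotube replicate 2 or 3 was left out (adjusted p of up to 0.075), and without myoblast replicate 1 the value was 2.84. The share of Stac3 in its family per length was 9.24%, 8.96% and 8.97% in myoblasts and 44.5%, 64.9% and 60.1% in myotubes, a difference of 47.4 percentage points (exact permutation p = 0.1, adjusted 0.175). Stac2 exceeded Stac3 by 9.65 to 10.1 times per length in myoblasts. In myotubes the Stac2 to Stac3 ratio was 1.19 in replicate 1 and 0.505 and 0.614 in replicates 2 and 3.

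**Figure D2:**
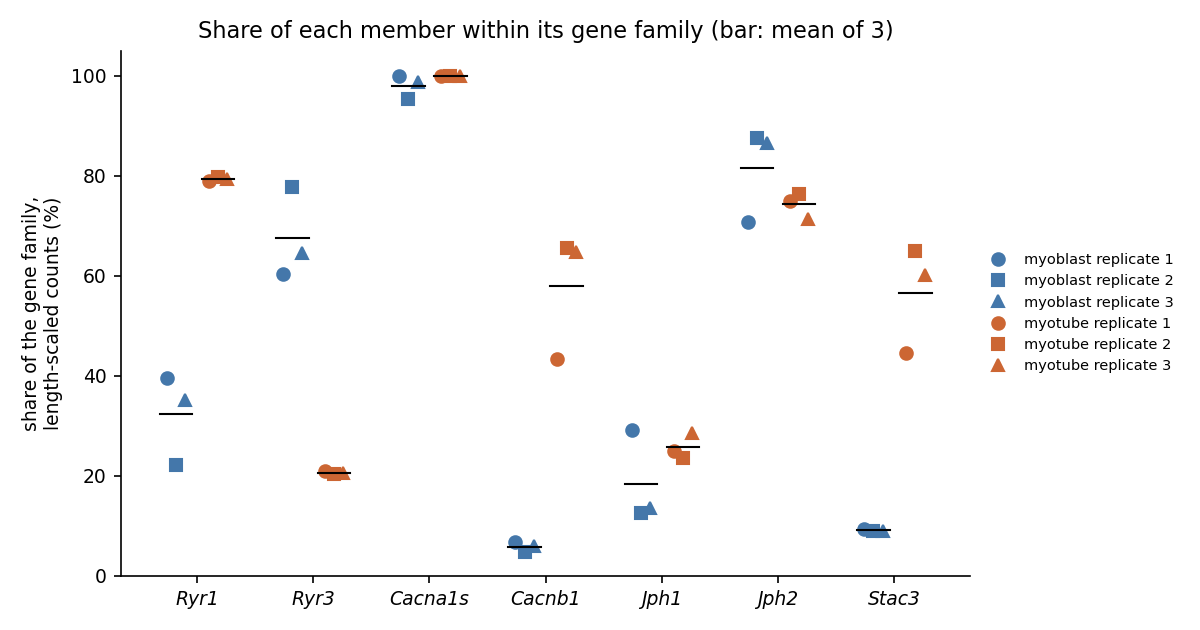
Share of each member in the length-scaled counts of its gene family (%), in 3 myoblast (blue) and 3 myotube (orange) libraries, with the group mean as a bar. Ryr1, Cacnb1 and Stac3 hold a larger share in each myotube library than in any myoblast library, whereas the junctophilin shares overlap between the groups.

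Junctophilins tether the store to the T-tubule. Jph1, the form typical of skeletal muscle, was at 18.3, 15.7 and 23.0 CPM in myoblasts and at 33.0, 83.7 and 94.4 CPM in myotubes. The groups were apart, and the log2 fold change was 1.89 ± 0.38 (SE, adjusted p = 0.00597), a 3.71-fold rise. Jph2, shared by heart and skeletal muscle, was at 37.8, 93.4 and 126 CPM in myoblasts and at 84.4, 231 and 201 CPM in myotubes. Myotube replicate 1 fell inside the range of the myoblasts. The log2 fold change of Jph2, 1.01 ± 0.49 (SE), was not called (adjusted p = 0.134). It was called with the replicate number as a block (1.05, adjusted p = 0.00529), which raised the count of members called higher to 10, and without myotube replicate 1 (1.32, adjusted p = 0.0431). Jph2 exceeded Jph1 per length in each library, by 2.43, 7.01 and 6.44 times in myoblasts and by 3.01, 3.25 and 2.497 times in myotubes. The share of Jph1 in the family overlapped between the groups, at 18.4 ± 9.36% and 25.7 ± 2.61% (SD, n = 3; exact permutation p = 0.4, adjusted 0.4), and the difference of 7.33 points was 12.7, 4.40 and 4.87 without myoblast replicates 1, 2 and 3. Jph3 and Jph4, the forms of the brain, had 3 counts or fewer in each group.

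Jsrp1 encodes JP-45, a store membrane protein that binds the voltage sensor and calsequestrin. It was at 3.19, 5.45 and 4.92 CPM in myoblasts and at 28.5, 72.4 and 53.3 CPM in myotubes, with no overlap. The log2 fold change was 3.51 ± 0.38 (SE, adjusted p = 0.000431), an 11.4-fold rise.

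Ordered per length, Cacng1 and Jph2 led in both groups, at 26.6 ± 11.3 and 20.2 ± 10.5 CPM per kilobase in myoblasts and 73.9 ± 37.6 and 40.5 ± 18.2 in myotubes (SD, n = 3). In myoblasts a gap followed, with Jph1 at 3.797 and Jsrp1 at 3.39 CPM per kilobase, Stac3 and Cacnb1 at 1.15 and 1.12, and Ryr3, Ryr1 and Cacna1s at 0.445, 0.206 and 0.0856. The neighbours Jph1 and Jsrp1, Stac3 and Cacnb1, Ryr3 and Ryr1, and Ryr1 and Cacna1s had overlapping ranges. In myotubes the order after Jph2 was Jsrp1 (38.6), Cacnb1 (23.6), Cacna1s (16.2), Jph1 (14.1), Ryr1 (10.9), Stac3 (8.87), Cacng6 (3.30) and Ryr3 (2.80 CPM per kilobase). Of these myotube neighbours only Stac3 and Cacng6 had ranges that did not overlap. Within libraries the order was steadier: Jsrp1 exceeded Cacnb1, Cacnb1 exceeded Cacna1s, and Cacng6 exceeded Ryr3 in all 3 myotube libraries, while Jph2 and Jsrp1, Cacna1s and Jph1, and Ryr1 and Stac3 kept the order of their means in 2 of 3. Deposited lengths need not match the transcript used, 21838 bases for Ryr1 and 6550 for Cacna1s, which limits such ratios.

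**Figure D3:**
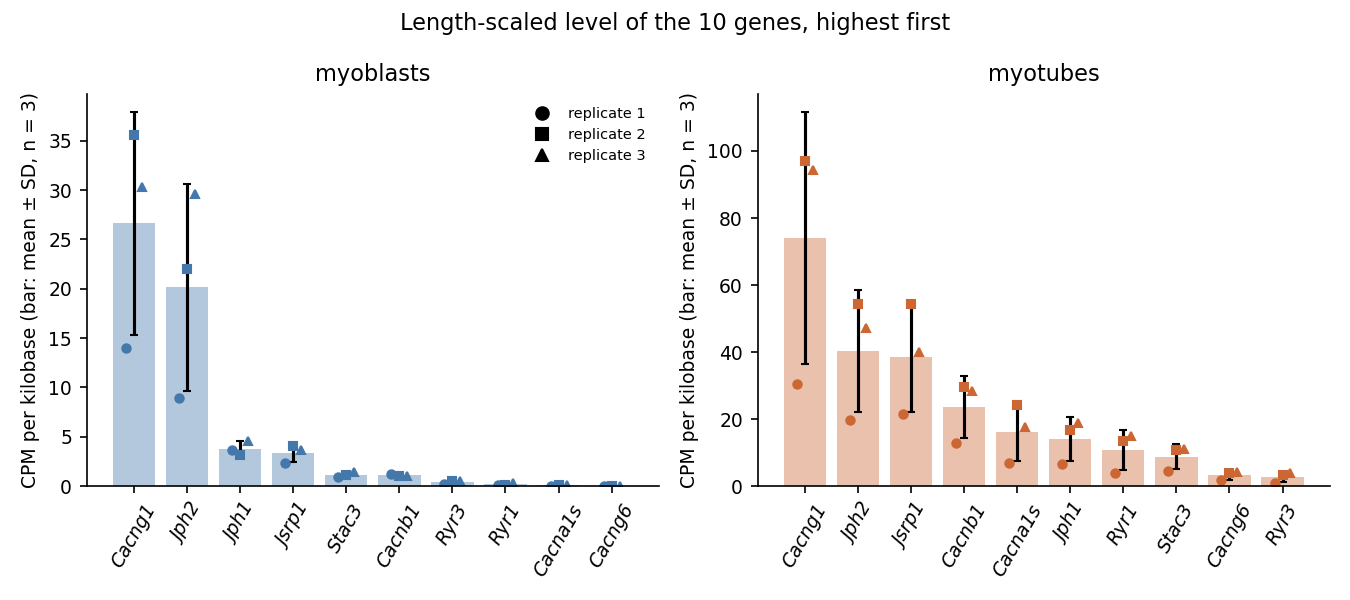
CPM per kilobase of deposited gene length for the 10 members, highest first, in myoblasts (left) and myotubes (right), as mean ± SD of 3 libraries with each library as a symbol and separate linear axes. Cacng1 and Jph2 lead both panels, and Cacna1s and Ryr1 move from the low end in myoblasts to the middle in myotubes.

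Set against the pore subunit, the myotube libraries held 0.595, 0.562 and 0.853 Ryr1 per Cacna1s transcript on the per-length scale. The same ratio was 1.88, 1.22 and 1.63 for Cacnb1, 4.44, 4.01 and 5.38 for Cacng1, and 0.665, 0.452 and 0.634 for Stac3. For Jsrp1 it was 3.11, 2.25 and 2.28. In myoblasts, where Cacna1s rested on few counts, these ratios were higher in each library, from 192 to 1370 for Cacng1 and at 17.0, 1.69 and 1.87 in replicates 1 to 3 for Ryr1. Myoblasts thus held transcripts of the gamma subunit and the junctophilins with little of the pore.

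Partners of the complex were read from a list of 22 genes of accessory subunits, calcium store proteins and regulators. The list was chosen by known function but with earlier results of these data known, so its counts are not independent evidence. Of 18 tested partners 11 rose, 2 fell and 5 were not called, with a median log2 fold change of 1.68. Over all 15932 tested genes 20.5% were called higher and 19.6% lower, and the median was 0.06. Casq1, Trdn, Hrc and Sypl2, near 0 in myoblasts, passed the filter only through the myotube group and could only be called higher. The count of partners that rose was 11 or 12 over the alternatives. The calcium-binding protein gene Casq1 went from 0.0836, 0.219 and 0.188 CPM to 151, 132 and 180 CPM (log2 fold change 9.95 ± 0.37), and triadin (Trdn), which anchors it to the ryanodine receptor, changed by 7.64 ± 0.65 (SE). Casq2, a gene of the same family as Casq1, went from 0.902, 2.07 and 2.81 CPM to 394, 837 and 907 CPM (8.57 ± 0.60). In the myotube libraries Casq2 exceeded Casq1 per length, at 144, 306 and 332 against 77.6, 67.5 and 92.2 CPM per kilobase. Srl rose by 5.99 ± 0.50 on the log2 scale (SE). Hrc, another store protein, changed by 8.42 ± 0.999, or 7.62 without myoblast replicate 1 and 9.85 with limma-voom. The counter-ion channel genes Tmem38a and Tmem38b rose by 4.36 ± 0.35 and 2.71 ± 0.45 on the log2 scale, and S100a1 by 1.68 ± 0.23 (SE). Sypl2, a triad membrane protein, rested on 1 myoblast count against 138 myotube counts and was 229 times higher (exact 95% counting interval 40.3 to 9093).

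Cacna2d1, the alpha2-delta subunit of the skeletal channel, was already at 59.0, 118 and 118 CPM in myoblasts and stood at 174, 263 and 223 CPM in myotubes. It rose by 1.17 ± 0.30 (SE, adjusted p = 0.0154) on the log2 scale. Its paralog Cacna2d2 had 2 counts in myoblasts and was at 0.348, 7.30 and 5.91 CPM in myotubes, which is 277 times higher (95% counting interval 76.2 to 2300), but it did not pass the filter and was not tested. The immunophilins that bind ryanodine receptors moved in opposite directions. Fkbp1a was at 203, 123 and 168 CPM in myoblasts and 63.0, 75.3 and 113 CPM in myotubes (log2 fold change -0.98 ± 0.27, adjusted p = 0.0227), whereas Fkbp1b was at 2.02, 2.09 and 1.08 CPM against 7.23, 4.01 and 5.62 CPM (1.68 ± 0.40, adjusted p = 0.0118). The call of Fkbp1a was lost without myoblast replicate 1 or 3 or myotube replicate 2 (adjusted p of up to 0.0628). Calm3, a calmodulin gene, fell (-0.66 ± 0.19, adjusted p = 0.0248), a call lost without myoblast replicate 2 or myotube replicate 2 or 3 (up to 0.0952). Calm2 had a value of -0.55 ± 0.27 and passed the test only without myotube replicate 1 (-0.88, adjusted p = 0.00749). Asph, the junctin locus, was not called (0.25 ± 0.27, adjusted p = 0.487). That gene also encodes a hydroxylase, and its products are not separated in gene counts.

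Genes of T-tubule formation and store-operated calcium entry, a further list of 12, had 6 members called higher and 0 lower, with a median of 0.90. The shares over all 15932 tested genes were 20.5% higher and 19.6% lower, with a median of 0.06. Cav3 and Trim72, near 0 in myoblasts, passed the filter only through the myotube group and could only be called higher. The count called higher was 7 without a filter and with the replicate block, and 8 without myotube replicate 1. DESeq2 and limma-voom also called 0 lower, and at an unadjusted p under 0.05 in edgeR 1 was lower (Mtmr14, -0.49 ± 0.19, adjusted p = 0.0674). Cav3 (caveolin of muscle) changed by 8.26 ± 0.62 and Trim72, a membrane repair protein, by 9.08 ± 0.71, and without myoblast replicate 2 Cav3 was at 8.91. Dysf (dysferlin) rose by 3.24 ± 0.52, Mtm1 by 2.03 ± 0.36 and Bin1 (amphiphysin of the T-tubule) by 1.60 ± 0.27 on the log2 scale. Stim1, the calcium sensor of the store, rose by 0.88 ± 0.18 (adjusted p = 0.0065). Its channel partner Orai1 missed the threshold (0.89 ± 0.33, adjusted p = 0.063) and passed it without myotube replicate 1 (1.19, adjusted p = 0.000688) or without a filter (0.87, adjusted p = 0.0289). Hacd1, an enzyme of fatty acid elongation in muscle, had a value of 0.92 ± 0.35 (adjusted p = 0.0712) and passed the test in 2 settings, the replicate block (0.90, adjusted p = 0.00651) and the fit that left out myotube replicate 1 (1.17, adjusted p = 0.00814). Dnm2, Speg and Stim2 had values of 0.09 to 0.21 with adjusted p of at least 0.425.

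**Figure D4:**
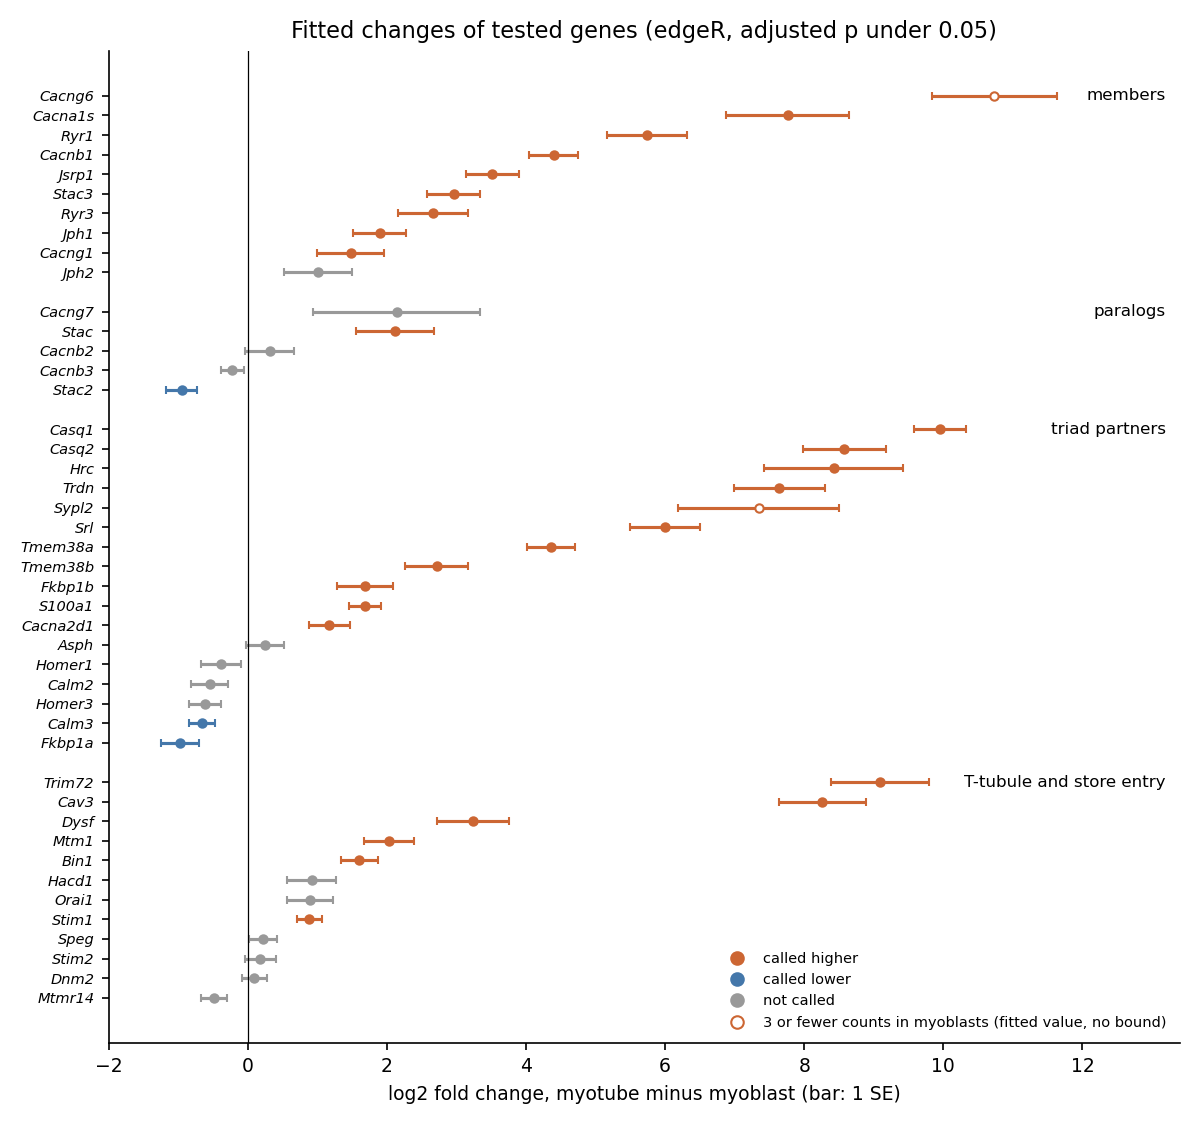
Fitted log2 fold change (myotube minus myoblast, bar 1 SE) of the tested members, paralogs, triad partners (1 not drawn) and T-tubule genes, coloured by call (edgeR, adjusted p under 0.05). Among the members 9 points are called higher and Jph2 is not called, while of the 5 tested paralogs Stac is called higher and Stac2 lower.

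Of the 17 paralogs in the same families, 5 passed the filter on low counts, with 1 called higher, 1 lower and 3 not called (median log2 fold change 0.32). The other 12 had 25 counts or fewer in either group, and 2 of them had none in any library. Since a gene enters the test only with enough counts in at least 1 group, this count covers the expressed paralogs alone. It lies near the shares over all tested genes, 20.5% called higher and 19.6% lower, and is not a result about the paralogs. Of the tested paralogs, Stac and Cacng7 passed the filter only through the myotube group and could only be called higher.

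Libraries within a group differed in the levels of the members. In myotube replicate 1 all 10 members were lower than the mean of replicates 2 and 3, by a median of -1.39 on the log2 scale (-1.80 for Ryr1 to -1.14 for Jsrp1). The 8 myotube markers were lower in that library too (median -1.24), and the markers of dividing cells were higher in 4 of 5 (median 1.82). Among myoblasts replicate 1 was the lowest for most members, with 8 of the 9 detected members under the mean of the other libraries (median -0.70), as were 6 of 8 myotube markers (median -1.73) and 4 of 5 markers of dividing cells (median -0.42). The part of these differences in the results was not tested. Leaving out myotube replicate 1 gave 10 members called higher, and leaving out any other single library gave 8. Calls over all genes moved with these settings too. Without myotube replicate 1, 3436 of 16722 tested genes were called higher. Without any other single library the count was 2430 to 3599, of 16325 to 16960 tested.

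**Figure D5:**
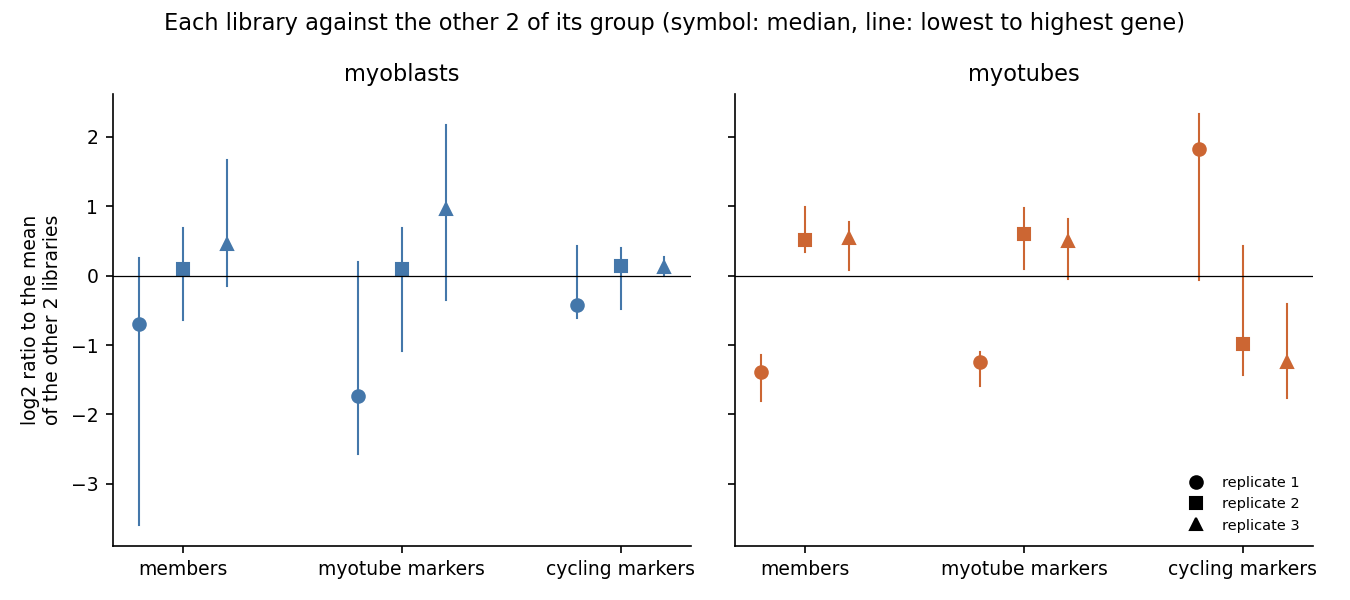
Log2 ratio of each library to the mean of the other 2 libraries of its group, for the members, 8 myotube markers and 5 markers of dividing cells, with the median gene as a symbol and the lowest to highest gene as a line. Myotube replicate 1 lies below 0 for the members and myotube markers, and its median of dividing cell markers lies above 0.

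The profile of the members over the 6 libraries (mean standardised log2 CPM) was most closely followed by Wwtr1, Itgb6, Dpp8, Sike1 and Ndel1, with Pearson correlations of 0.998 to 0.999. Of 9609 genes outside the lists whose log2 CPM averaged 3 or more, 425 had a correlation above 0.95. The libraries are shared and fall into separate groups, so this is a description. These genes differed in the size of their rise, with Itgb6 at 4.74 and 51.0 CPM and Ndel1 at 82.5 and 94.6 CPM in myoblasts and myotubes.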

How the data were processed

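The deposited table holds raw counts per gene for 6 C2C12 libraries under GENCODE identifiers with symbols and lengths, per the file headers. The tools STAR 2.5.1b, featureCounts 1.5.1, Salmon 0.12.0, bcl2fastq and DESeq2 1.18.1 and the build mm10 are listed, per the submitters' processing notes, without roles, and strand settings of the counting are not given in the sources used here. The RNA kit was stranded and removed ribosomal RNA, per the labels' protocols. Counts were tested with edgeR 4.0.16 under R 4.3.3 (TMM, filterByExpr by group, robust quasi-likelihood F-test, no covariate), adjusted by Benjamini-Hochberg over all 15932 tested genes at 0.05. The SE was taken as the size of the log2 fold change over the root of the F statistic. CPM are TMM-scaled. Shares and ratios divide counts by deposited length. Counting intervals are exact at 95% and, like the floor of 3 counts, cover counting error only. Alternatives used DESeq2 1.42.0, limma-voom (limma 3.58.1), other scalings and filters, a replicate block and leaving out each library. The test was checked on simulated data.

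All 10 members are named. Most genes of 3 further lists that have a count are named, as are the 5 genes most like the members by correlation. One triad partner is included in the counts of its list but is not reported here by itself. The members and lists were chosen with earlier results of these data known. All 10 identifiers matched their symbols in the reference table. Same-numbered libraries deviated from their group means together (correlations of 0.232, 0.189 and 0.17 over the tested genes), so the numbers, taken from the labels, were treated as a possible pairing. Across numbers the highest correlation, 0.358, joined myotube replicate 2 to myoblast replicate 3. Libraries of a group differed by more than sampling noise (lowest chi-square over its degrees of freedom, 106).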

Additional observations from a re-analysis of the deposited data

How the results depend on the processing

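The count of members called higher was 9, and 8 to 10 over the alternatives, and the count called lower was 0 in each. Over all genes the alternatives called 2430 to 3906 higher and 2127 to 3678 lower, of 12577 to 30300 tested. Ryr1, Ryr3, Cacna1s, Cacnb1, Cacng6, Stac3, Jph1 and Jsrp1 were called higher in all 13 alternatives, Cacng1 in 5 and Jph2 in 2. Scaling by library size alone shifted all genes' median by -0.12 (log2) and turned the direction of no member. The replicate block gave 2 paralogs called higher in place of 1 (Cacng7 added) and called Jph2 and Hacd1 higher. It called the triad partner Homer3 lower (-0.66, adjusted p = 0.0427, against -0.62 and 0.0677 in the main fit). No other call changed among the members, paralogs, triad partners and T-tubule genes. Paralogs called higher were 2 without a filter, 2 with DESeq2 and 0 when the mean count had to reach 50, and 0 to 2 when single libraries were left out. Triad partners called lower were 2 in the main fit, 3 with library size scaling and without a filter, and 1 to 3 when single libraries were left out. Homer3 was called lower with library size scaling (-0.73, adjusted p = 0.042) and without a filter (-0.64, adjusted p = 0.0444). It was also called lower without myotube replicate 2 (-0.84, adjusted p = 0.0409). T-tubule and store entry genes called lower were 1 with library size scaling, and 0 to 1 when single libraries were left out. Without myoblast replicate 3, and without myotube replicate 1, that gene was Mtmr14. Shares kept their direction in each setting. With 3 against 3 samples their permutation p cannot pass 0.05, so only the direction could be compared between settings. Genes under about 1 CPM in myoblasts have folds set by few counts.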
